A study of Heterocephalus glaber with 23 samples.

Results

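The 10 immediate early transcription factors FOS, FOSB, JUN, JUNB, EGR1, ATF3, IER2, NR4A1, NR4A3 and KLF6 were followed in the liver of the naked mole-rat (NMR), a long-lived rodent in whose colonies a single female and her mates breed while the other adults do not. The genes were named as members of a known family of response genes, but with earlier results of these data known. They are 10 of 16339 genes in the count table. Livers of 23 animals were sequenced: breeding females (6) and their non-breeding counterparts (5), then breeding males (6) and non-breeding males (6), each library from its own animal, and all animals were 2.4 to 4.1 years old. None of the animals carried an engineered allele or received a treatment by the labels. By the study's methods, breeders had been taken from their colonies and paired, whereas non-breeders were litter siblings left in the natal colony, so colony and housing cannot be told apart from status. Female breeders were sampled weeks after their last pregnancy and male breeders days after a birth, so time since a birth cannot be told apart from sex among breeders. All animals were anaesthetised with isoflurane and decapitated before the liver was taken.

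Immediate early genes are switched on within minutes of a stimulus without new protein synthesis, by factors such as SRF, the ternary complex factors and CREB that already sit on their promoters. Their mRNAs are short-lived. FOS, FOSB, JUN and JUNB are subunits of the dimeric factor AP-1, ATF3 is a stress-induced bZIP factor that pairs with JUN proteins, and EGR1 is a zinc finger factor induced through ERK signalling. NR4A1 and NR4A3 are orphan nuclear receptors, known in mouse liver as targets of the glucagon and cAMP pathway that promote gluconeogenesis. In rodent liver, several of these genes are known to rise soon after partial hepatectomy.

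Library totals lay between 11826665 and 22969366 counts, and the 10 genes together took between 0.00747% and 0.137% of them. Levels are counts relative to library size (CPM) after TMM scaling, and since CPM is not corrected for transcript length, levels are compared between livers and not between genes. The summed level of 12 hepatocyte markers was between 123866 and 252045 CPM, and none of these markers was at 0 in all libraries. Markers of macrophages and Kupffer cells summed to between 274 and 737 CPM, those of endothelial cells to between 530 and 930 CPM and those of neutrophils to between 39.8 and 297 CPM. In bulk tissue, fewer cells of a type and less RNA per cell cannot be told apart. The first principal component (26.4% of the variance) set 3 libraries apart: male non-breeder 3 with a coordinate of 91.7, female breeder 6 with 52.7 and male breeder 5 with 43.8. In these 3 libraries MTRNR2L4, a gene of mitochondrial 16S rRNA origin, took 11.9%, 8.40% and 8.24% of the counts. By the study's list of libraries, all female breeders and male breeders 1 to 3 were sequenced with shorter reads than the rest, so read length cannot be told apart from status in females. Status comparisons over both sexes include these females, so read length is mixed with status there as well.

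In none of the 6 comparisons of status and sex did any of the 10 genes pass the threshold, and all of them were among the 10% most variable liver genes between animals of the same group. Female non-breeder 4, male non-breeder 3 and female breeder 4 were the 3 highest livers in FOS, FOSB, JUN and IER2, and female non-breeder 4 and male non-breeder 3 were among the 5 highest in JUNB and EGR1 as well. NR4A1 and NR4A3 were high in other livers, all of those with the top NR4A1 levels being males. ATF3 was close to the detection floor, and it and KLF6 had the smallest spread of the 10.

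FOS, the AP-1 subunit that is the textbook immediate early gene, spanned a 302-fold range over the 23 livers, with 16 counts in the lowest and 4911 in the highest. FOS stood at 6.86, 45.3 and 198 CPM in female breeders (lowest, median and highest) and at 2.61, 33.4, 57.7, 313 and 11.95 CPM in female non-breeders 1 to 5. In males it stood at 1.04, 17.98 and 50.1 CPM in breeders, against 2.22, 31.2 and 315 CPM in non-breeders. All ranges overlapped, although no male breeder came near the highest liver of each other group. The 2 highest livers, male non-breeder 3 and female non-breeder 4, were non-breeders of different sex, and female breeder 4 came next.

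FOSB, a FOS paralog and likewise a partner of JUN proteins, followed FOS from liver to liver. Its levels were 0.441, 3.26 and 26.2 CPM in female breeders (lowest, median and highest) and 0.127, 1.25, 3.52, 12.8 and 0.212 CPM in female non-breeders 1 to 5. In male breeders 1 to 6, FOSB had 1.77, 1.78, 4.79, 0, 5.21 and 0.42 CPM, against 0.292, 2.49 and 10.6 CPM in male non-breeders (lowest, median and highest). Male breeder 4, which was also lowest in FOS, had 0 FOSB counts of 16257065, which allows a level of up to 0.196 CPM. Such limits and intervals cover counting error only. The groups overlapped for FOSB as for FOS.

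JUN and JUNB are the AP-1 subunits that pair with FOS proteins, JUN as the stronger activator. JUN ranged between 17.1 and 98.9 CPM in female breeders, between 13.5 and 252 CPM in female non-breeders, between 14.3 and 96.4 CPM in male breeders and between 20.2 and 194 CPM in male non-breeders. Female non-breeder 4 and male non-breeder 3 were highest, as in FOS. JUNB ranged between 10.4 and 86.9 CPM in female breeders, between 6.35 and 109 CPM in female non-breeders, between 8.35 and 52.2 CPM in male breeders and between 7.64 and 84.9 CPM in male non-breeders. For JUNB, female breeder 2 ranked between female non-breeder 4 and male non-breeder 3.

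ATF3, which is induced by stress kinases and by the ATF4 pathway, was barely detected, with 3 to 21 counts per library. Only 8 of 23 libraries reached 10 counts: those of 2 breeding and 2 non-breeding females, and those of 1 breeding and 3 non-breeding males. ATF3 averaged 0.705 ± 0.514 CPM in female breeders (SD, n = 6) against 0.475 ± 0.431 CPM in female non-breeders (SD, n = 5). In males ATF3 averaged 0.586 ± 0.475 CPM in breeders against 0.652 ± 0.243 CPM in non-breeders (SD, n = 6 each). In female non-breeder 3, the lowest liver, 3 counts gave 0.132 CPM with an exact Clopper-Pearson 95% interval between 0.0272 and 0.385 CPM. In male breeder 5, the highest, 21 counts gave 1.52 CPM, between 0.939 and 2.32 CPM. These intervals of the lowest and the highest liver did not overlap, but both livers were picked by these same counts, so this is no test of a difference.

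EGR1, a growth-factor and fasting responsive activator in liver, had 15.04, 271 and 697 CPM in female breeders (lowest, median and highest) and 72.9, 44.0, 133, 504 and 141 CPM in female non-breeders 1 to 5. Male breeders had 31.6, 94.9 and 464 CPM and male non-breeders 21.6, 109 and 456 CPM. Female breeders held both the highest and the lowest of the 23 livers, and the median was highest in that group. IER2, a small nuclear protein that acts as a transcriptional coregulator, ranged between 13.4 and 63.3 CPM in female breeders, between 15.5 and 92.5 CPM in female non-breeders, between 13.04 and 48.6 CPM in male breeders and between 11.5 and 101 CPM in male non-breeders. The 3 highest livers in IER2 were the 3 highest in FOS, in the same order.

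KLF6, a Krüppel-like zinc finger factor found in hepatocytes and stellate cells, spanned an 8.49-fold range. KLF6 averaged 15.4 ± 6.28 CPM in female breeders (SD, n = 6), against 13.98 ± 6.43 CPM in female non-breeders (SD, n = 5). In males the mean was 8.75 ± 4.04 CPM in breeders against 12.5 ± 7.19 CPM in non-breeders (SD, n = 6 for both). The lowest level, 2.95 CPM, was in male non-breeder 3, the liver with the most FOS and IER2. In female non-breeder 4, by contrast, KLF6 was the second highest of all, at 23.6 CPM.

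**Figure D1:**
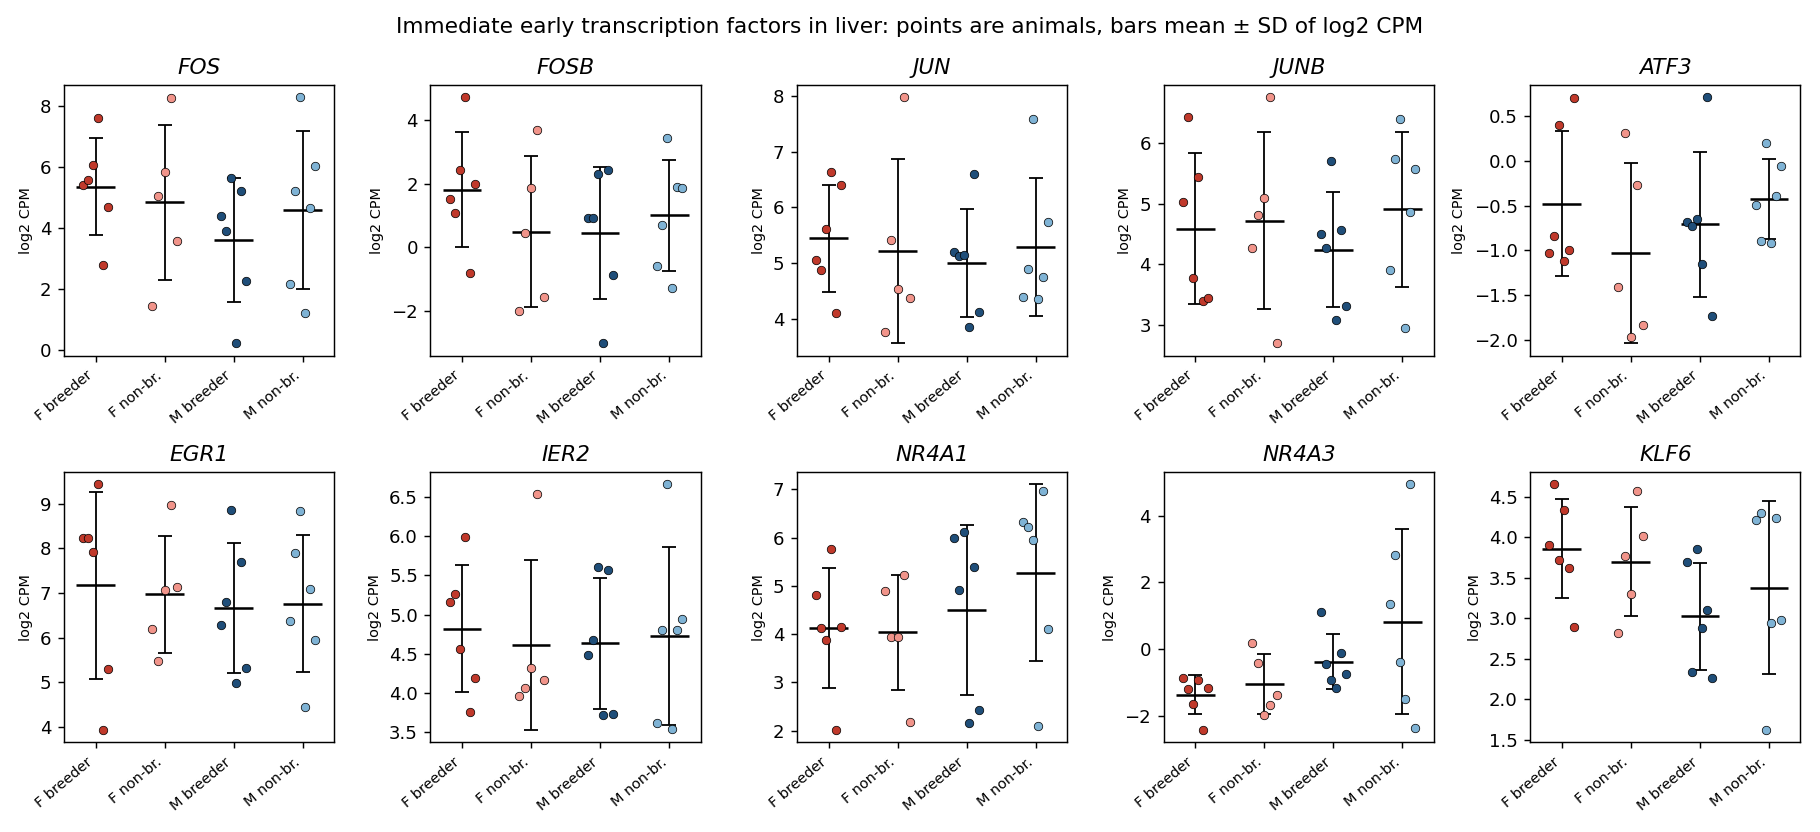
Levels of the 10 genes in log2 CPM (prior count 2), 1 panel per gene with its own vertical scale, and groups in the order female breeders, female non-breeders, male breeders and male non-breeders. Points are livers, horizontal bars are group means and vertical bars are SD (n = 6, 5, 6 and 6). In every panel the groups overlap, and NR4A3 is widest among male non-breeders.

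NR4A1, an orphan nuclear receptor induced by cAMP in hepatocytes, had 3.90, 17.4 and 54.2 CPM in female breeders (lowest, median and highest) and 29.6, 15.3, 15.3, 37.5 and 4.39 CPM in female non-breeders 1 to 5. Male breeders had 4.37, 35.9 and 69.6 CPM, and male non-breeders 4.14, 68.2 and 126 CPM. The 6 highest livers were all males, 4 non-breeders and 2 breeders, yet males also held livers near the low end, so that the sexes overlapped. The highest was male non-breeder 5, followed by male non-breeders 1 and 2.

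NR4A3, a close paralog of NR4A1, was at the edge of detection in most livers. NR4A3 had 0.43, 0.31, 0.20, 0.41, 0.063 and 0.32 CPM in female breeders 1 to 6, none of which reached 10 counts, and 1.02, 0.63, 0.13, 0.19 and 0.26 CPM in female non-breeders 1 to 5. Male breeders 1 to 6 had 2.05, 0.62, 0.40, 0.33, 0.80 and 0.48 CPM, against 2.45, 6.98, 0.64, 0.23, 30.7 and 0.070 CPM in male non-breeders 1 to 6. A single liver, male non-breeder 5 with 431 counts, held most of the NR4A3 reads of its group, and the lowest male non-breeder had 1 count. Of the 8 libraries with 10 or more NR4A3 counts, 4 were of male non-breeders, so the gene passed the filter on low counts largely through that group. For comparisons with male non-breeders, its adjusted p is therefore given from the edgeR fit with no filter on low counts.

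NR4A2, the remaining receptor of the NR4A family and not one of the 10, showed the same livers at the top. It stood at 1.20, 1.78 and 2.06 CPM in female breeders (lowest, median and highest), at 1.27, 2.62 and 12.8 CPM in female non-breeders, at 1.04, 2.16 and 23.6 CPM in male breeders and at 0.758, 21.0 and 109 CPM in male non-breeders. The 109 CPM were in male non-breeder 5, and male non-breeders 2 and 1 followed with 57.9 and 38.5 CPM. Over 23 livers, the deviations of NR4A2 from its group means in log2 CPM correlated with those of NR4A3 at r = 0.804, with those of NR4A1 at r = 0.680 and with those of FOS at r = 0.021. CREM, whose short product is induced by cAMP, and SIK1, a kinase induced by cAMP, correlated with NR4A3 at r = 0.825 and r = 0.679, against r = -0.005 and r = 0.087 with FOS. NR4A2, CREM and SIK1 were singled out after their values were seen, so these correlations are a description. NR4A3 had an SD in log2 CPM of 2.77 among male non-breeders and of 0.59 to 0.90 in the other groups. Its correlations thus weigh male non-breeders most.

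Placed against all 12306 genes that passed the filter, the members were far more variable between livers of the same group. The SD of log2 CPM within groups was 2.21 for FOS, which ranked 11th of 12306, 2.00 for FOSB, 1.65 for EGR1, 1.57 for NR4A3 and 1.55 for NR4A1. JUNB with 1.24, JUN with 1.21, IER2 with 0.97, ATF3 with 0.78 and KLF6 with 0.78 followed. The median was 1.395 over the 10 members and 0.36 over all genes tested. All 10 lay in the top 10% and 5 in the top 1% of genes by this measure. The biological coefficient of variation estimated by edgeR had a median of 0.794 over the members and 0.240 over all genes. NR4A3 and ATF3 have few counts, which adds counting error to their spread, whereas FOS, EGR1 and NR4A1 rank high with at least 16 counts in each library.

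**Figure D2:**
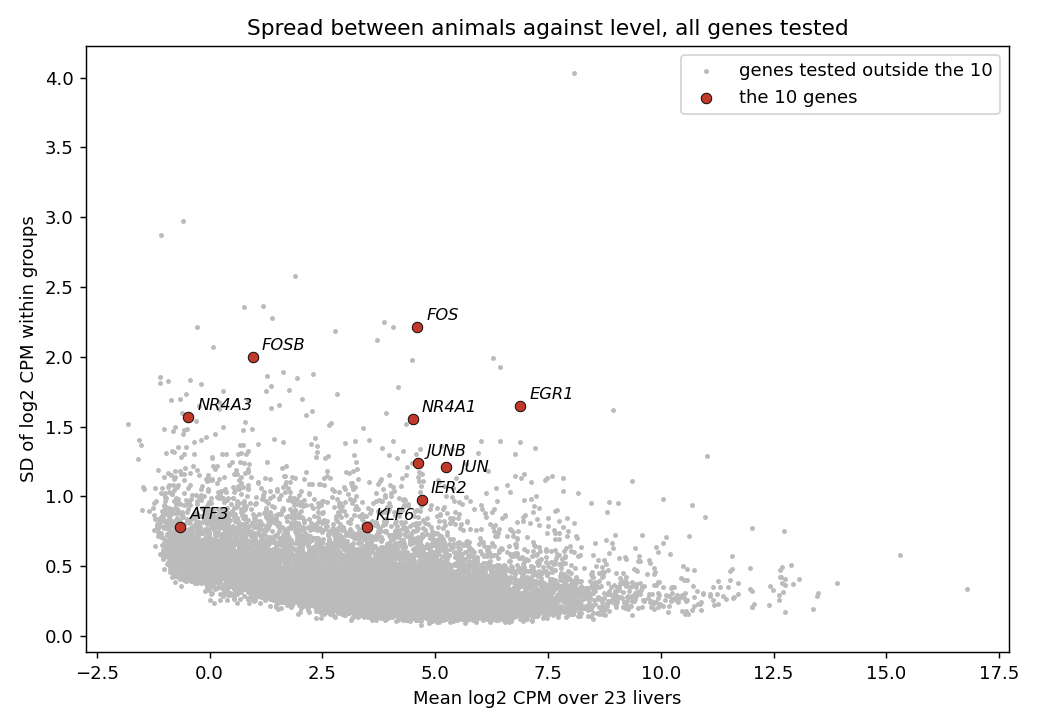
SD of log2 CPM within groups against mean log2 CPM over 23 livers, for 12306 genes (grey) and the 10 members (red). FOS, with an SD of 2.21, and EGR1, with 1.65, lie above nearly all genes of like level, and KLF6 and ATF3 lie closest to the bulk.

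The first comparison asked whether breeding status altered these genes in female liver (NMR-F-BvN). None of the 10 members passed an adjusted p of 0.05, nor did any of 12306 genes (0%). At an unadjusted p under 0.05, 0 of 10 members and 3.7% of all genes were called. DESeq2 called 0 members and 0.0322% of 15521 genes, and limma voom 0 of either. FOS averaged 64.8 ± 68.5 CPM in female breeders (SD, n = 6), against 83.8 ± 130 CPM in female non-breeders (SD, n = 5), which on the log2 scale is -0.37 ± 1.08 (SE) with a 95% interval between -2.61 and 1.87. FOSB had a log2 fold change of 0.91 ± 1.03 and EGR1 one of 0.57 ± 0.85 (SE). The interval of FOS thus included a more than 3-fold change either way, and without female non-breeder 4 its estimate turned to 1.29. Log2 fold changes lay above 0 for 5 of 10 members (52.1% of all genes), with a median of 0.06 over the members and 0.01 over all genes. The count was 9 of 10 without female non-breeder 4 and with limma voom, and 3 of 10 without female breeder 4.

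The same question in males (NMR-M-BvN) gave again 0 of 10 members past the threshold, and 0% of 12306 genes. At an unadjusted p under 0.05, 1 member and 5.88% of all genes were called. DESeq2 called 0 members and 0.0129% of genes, and limma voom 0 members and 0.00813%. That member was NR4A3, at 0.777 ± 0.645 CPM in male breeders and 6.84 ± 11.96 CPM in male non-breeders (SD, n = 6 each), or -3.10 ± 0.90 on the log2 scale (SE, edgeR adjusted p with no filter = 0.665). Without male non-breeder 5 the log2 fold change was -1.42, and it was -3.68 among the libraries with longer reads. FOS averaged 21.5 ± 19.0 CPM in male breeders and 74.9 ± 120 CPM in male non-breeders (SD, n = 6 each), or -1.80 ± 1.07 on the log2 scale (SE), which shrank to -0.31 without male non-breeder 3. JUNB at -0.80 ± 0.64, NR4A1 at -0.76 ± 0.70, JUN at -0.56 ± 0.69, KLF6 at -0.51 ± 0.40 and FOSB at -0.50 ± 1.01 had intervals that included 0 as well.

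All 10 members had a log2 fold change below 0 in males, a direction that 53.4% of all genes shared, and their median was -0.53 against -0.02 over all genes. Over the 9 members without NR4A3 the median was -0.51. Members rise and fall together between livers, so 10 genes are not 10 independent counts. Without male non-breeder 3 the count fell to 5 of 10 and the median was -0.15. Once the 3 libraries apart on the first component were dropped, 8 of 10 members lay below 0, and within the libraries of longer reads 9 of 10. Most marker lists leaned the same way, with 0 genes called: 11 of 12 hepatocyte markers, 12 of 13 macrophage markers, 8 of 9 neutrophil markers, 10 of 12 endothelial markers, 12 of 12 stellate cell and fibroblast markers and 6 of 7 erythroid markers lay below 0. Of lymphocyte markers 6 of 9 lay below 0, of cholangiocyte markers 5 of 7 and of skeletal muscle markers 2 of 6. The medians were -0.09 for hepatocyte, -0.44 for macrophage, -0.95 for neutrophil, -0.14 for endothelial and -0.50 for stellate cell markers. Summed neutrophil markers were between 39.8 and 107 CPM in male breeders and between 48.5 and 297 CPM in male non-breeders. Summed macrophage markers were between 274 and 601 CPM in male breeders and between 445 and 737 CPM in male non-breeders, and stellate cell markers between 156 and 232 CPM in male breeders and between 222 and 320 CPM in male non-breeders. The part of these cells in the members' fold changes was not tested. Within groups, no relation of a member to a marker level passed after adjustment, as given below.

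Averaged over both sexes (NMR-BvN), 0 of 10 members and 0% of all genes passed. DESeq2 called 0 members and 0.232% of genes, and limma voom 0 members and 0.0406%. At an unadjusted p under 0.05, 1 of 10 members and 7.94% of genes were called. NR4A3 was again that member, at -1.84 ± 0.74 (SE, edgeR adjusted p with no filter = 0.590), and at -0.999 without male non-breeder 5. FOS stood at -1.08 ± 0.76, JUNB at -0.53 ± 0.46 and EGR1 at 0.24 ± 0.58 (log2 fold change ± SE). Of the members 7 lay below 0, as did 51.3% of all genes. The count was 9 without female breeder 4, and 5 without female non-breeder 4 and with limma voom.

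Whether status acted alike in both sexes was tested by subtracting the male status difference from the female one. No member and 0% of genes passed, and 0 of 10 members against 1.85% of genes had an unadjusted p under 0.05. DESeq2 called 0 members and 0.00644% of genes. NR4A3 had the largest difference, 2.53 ± 1.51, followed by FOS with 1.43 ± 1.52 and FOSB with 1.42 ± 1.44 (log2 ± SE). All 10 members lay above 0, as did 52.9% of all genes, with medians of 0.70 and 0.02. This contrast is built from the male one and shares its livers, and without male non-breeder 3 the count was 7 of 10.

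Among breeders (NMR-B-FvM), 0 of 10 members passed, beside 0.0488% of all genes. At an unadjusted p under 0.05 the members gave 0 of 10 and all genes 5.89%. DESeq2 called 0 members and 0.155% of genes, and limma voom 0 members and 0.0406%. KLF6 came closest, at 15.4 ± 6.28 CPM in female breeders against 8.75 ± 4.04 CPM in male breeders (SD, n = 6 each) and 0.82 ± 0.40 on the log2 scale (SE, edgeR adjusted p = 0.844). Among the libraries of shorter reads its log2 fold change was 0.53. FOS stood at 1.59 ± 1.07, FOSB at 1.53 ± 1.00 and EGR1 at 0.77 ± 0.81, and NR4A3 at -1.43 ± 1.07 (log2 fold change ± SE). FOSB dropped to 0.29 without female breeder 4. Of the members 8 lay above 0 against 54.4% of genes. Above 0 also lay 13 of 13 macrophage markers, 12 of 12 stellate cell markers, 8 of 9 neutrophil markers, 10 of 12 endothelial markers, 7 of 9 lymphocyte markers, 5 of 7 cholangiocyte markers and 4 of 6 skeletal muscle markers, but 4 of 12 hepatocyte markers and 0 of 7 erythroid markers. Of all of these 1 was called, an endothelial marker that was lower in female breeders. Summed macrophage markers were between 286 and 683 CPM in female breeders and between 274 and 601 CPM in male breeders, and stellate cell markers between 200 and 440 CPM in female breeders and between 156 and 232 CPM in male breeders. Their part in the members' fold changes was not tested.

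Among non-breeders (NMR-N-FvM), which all had the longer reads, 0 of 10 members passed, beside 0.0325% of all genes. At an unadjusted p under 0.05, 1 of 10 members and 5.15% of genes were called. DESeq2 called 0 members and 0.0387% of genes, and limma voom 0 members and 0.0325%. NR4A3 stood at 0.446 ± 0.372 CPM in female non-breeders (SD, n = 5) and 6.84 ± 11.96 CPM in male non-breeders (SD, n = 6), or -3.95 ± 1.03 on the log2 scale (SE, edgeR adjusted p with no filter = 0.890). DESeq2 gave -3.95 with an adjusted p of 0.103, the lowest of any alternative tried, and limma voom -2.72 with an adjusted p of 0.939. Without male non-breeder 5 the log2 fold change was -2.26. NR4A1 followed in the same direction at -1.57 ± 0.76 (SE, edgeR adjusted p = 0.856), with 20.4 ± 13.1 CPM in females and 60.4 ± 44.4 CPM in males. NR4A2, from the list of other immediate early factors, stood at -2.92 ± 1.01 (SE). Of the members 5 lay above 0, as did 50.5% of all genes. The log2 fold changes of FOS, JUN, EGR1, FOSB and KLF6 lay between 0.11 and 0.29. Yet without female non-breeder 4 all 10 members lay below 0, with a median of -1.11 instead of 0.05, and 2 of 10 lay above 0 without male non-breeder 1 and likewise without male non-breeder 4.

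No member separated any pair of groups: in none of the status and sex comparisons did all livers of one group lie above those of the other. Over all genes, 0.309% did so in NMR-F-BvN, 0.431% in NMR-M-BvN, 0.349% in NMR-B-FvM and 0.284% in NMR-N-FvM.

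**Figure D3:**
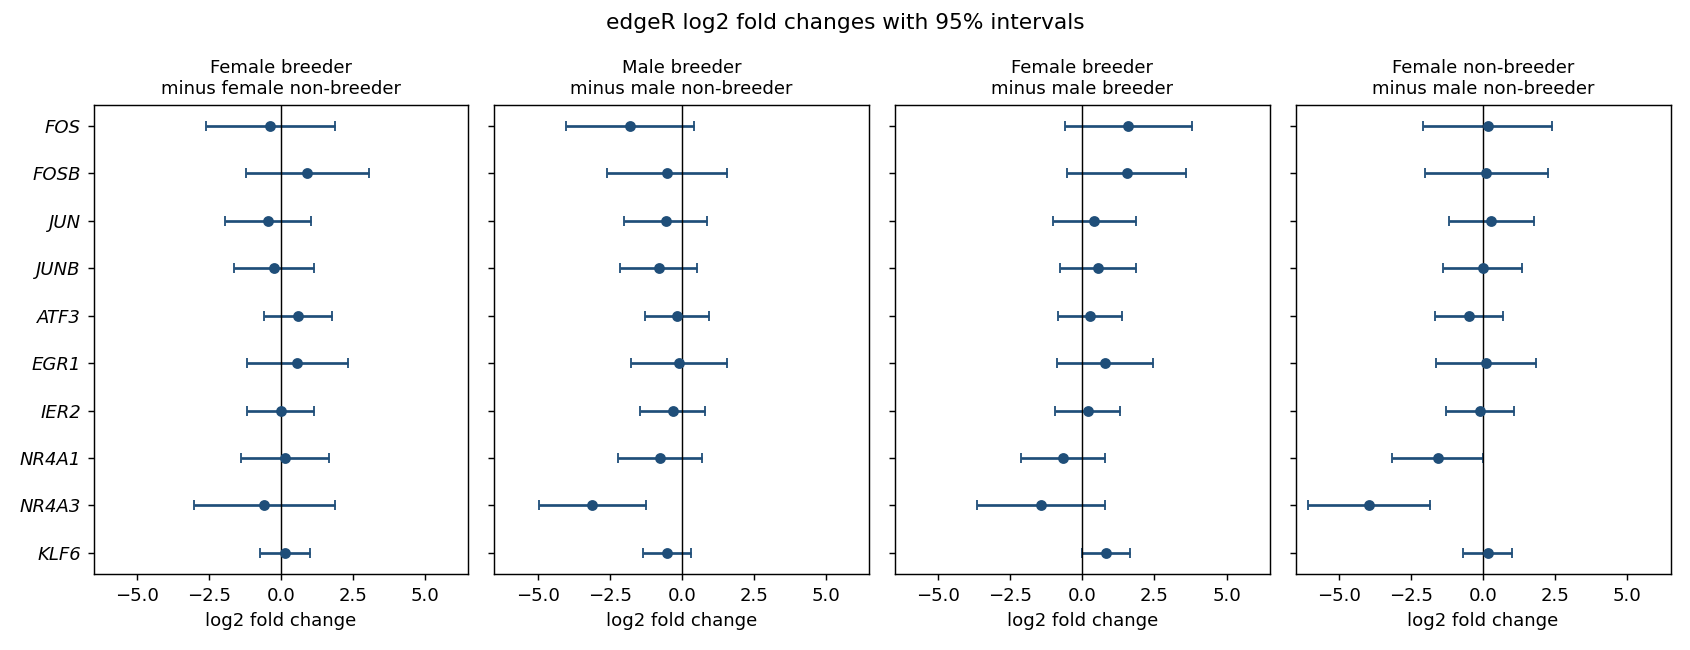
Log2 fold changes of the 10 genes in the 4 pairwise comparisons (edgeR), with points for the estimates and bars for 95% intervals. Positive values are higher in the group named first above each panel. The intervals cross 0 for every gene except NR4A3 in males and in non-breeders, which passed after adjustment in neither and had passed the filter largely through male non-breeders.

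Between livers, the AP-1 genes, IER2 and EGR1 varied together. After the group means were taken off, FOS and FOSB correlated at r = 0.948 and rho = 0.933 over 23 livers (permutation p = 1e-05, adjusted p = 5e-05 over 45 pairs), and at r = 0.934 without the 2 livers farthest from the FOS median. This p is the smallest that 100000 permutations can give. FOS and IER2 correlated at r = 0.898 and rho = 0.868, FOS and JUN at r = 0.838 and rho = 0.855, FOS and EGR1 at r = 0.781 and rho = 0.735 (permutation p = 1e-05 each). Of the 45 pairs, 22 had r above 0.5 and 22 an adjusted p under 0.05, with a median r of 0.462. The share of all gene pairs that reached these values was not computed, so the counts are a description of the members only. The members share library, scaling and depth in these correlations. Within the 9 libraries of shorter reads the median r was 0.462 and within the 14 of longer reads 0.561, and FOS and FOSB stood at 0.933 and 0.954. Some pairs of the AP-1 genes, IER2 and EGR1 were weaker among the 9 libraries: JUN with JUNB had r = 0.022, FOSB with JUNB 0.372, JUN with EGR1 0.391 and JUN with IER2 0.405, against 0.800, 0.859, 0.732 and 0.938 among the 14. The median r was 0.575 once the 3 libraries apart on the first component were dropped.

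NR4A3 stood outside that group, although only 8 of 23 libraries reached 10 NR4A3 counts and counting error can lower a correlation. Its correlation with FOS was r = -0.010 and rho = -0.111 (permutation p = 0.964, adjusted p = 0.986), whereas with its paralog NR4A1 it was r = 0.610 and rho = 0.631 (permutation p = 0.00154, adjusted p = 0.00385), and r = 0.536 without the 2 farthest livers. NR4A1 lay between both sets, with r = 0.706 to EGR1 and r = 0.597 to FOS. ATF3 correlated with JUN at r = 0.658 and rho = 0.644 (permutation p = 0.00078, adjusted p = 0.00206) and with EGR1 at only r = 0.107. ATF3 and JUN had r = 0.545 without the 3 libraries that stood apart, 0.423 among shorter reads and 0.734 among longer ones. Both fell with the total count (r = -0.627 for ATF3 and -0.456 for JUN) and rose with the MTRNR2L4 share (0.617 and 0.592), none of which passed after adjustment. Whether depth or that share underlies their correlation was not tested. KLF6 and FOS had r = 0.131 (permutation p = 0.551), which was 0.456 without the 3 libraries that stood apart.

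**Figure D4:**
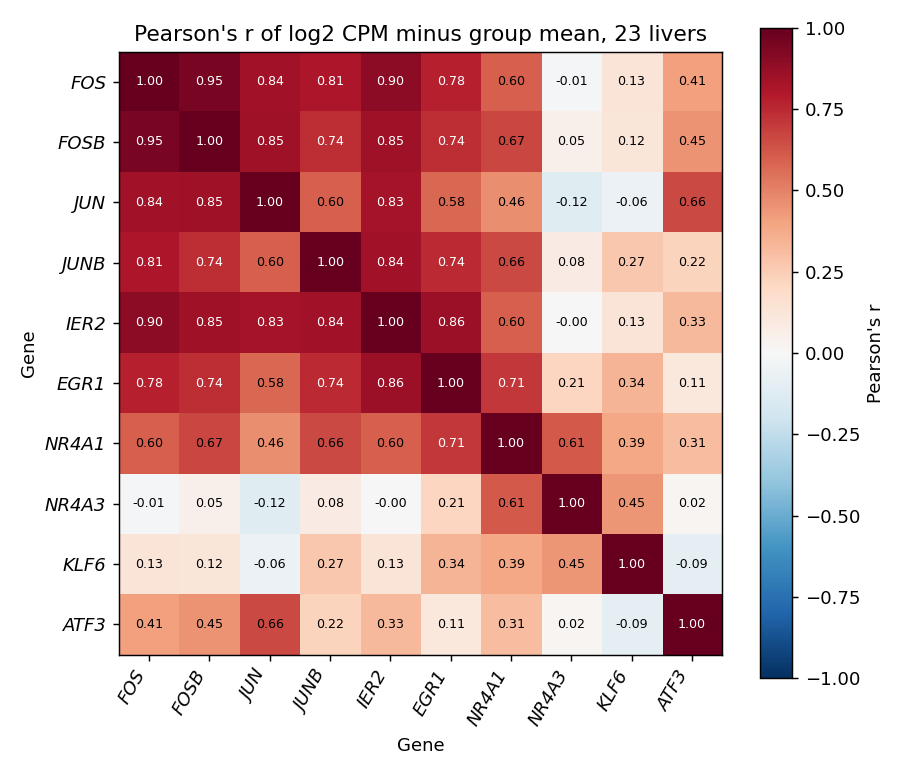
Pearson's r between the 10 genes over 23 livers, on log2 CPM minus the group mean. The upper left block of FOS, FOSB, JUN, JUNB, IER2 and EGR1 holds values of 0.58 and above, and NR4A3 has values between -0.12 and 0.08 with all of these but EGR1, with which it has 0.21.

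Seen by animal, the mean over the 10 genes of log2 CPM, centred on each gene's mean, was highest in female non-breeder 4 at 1.63, male non-breeder 3 at 1.48 and female breeder 4 at 1.41. It was lowest in male breeder 4 at -1.83, male non-breeder 4 at -1.60, female breeder 5 at -1.45 and male breeder 6 at -1.38. High and low livers thus came from both sexes and from both breeders and non-breeders. Female non-breeder 4 and male non-breeder 3 were each among the 5 highest livers for 7 of 10 genes, and female breeder 4 for 6. In male breeder 4, male breeder 6 and male non-breeder 4, none of the 10 genes was above its own mean. The summed level of the 10 genes was 1346 CPM in female non-breeder 4 and 75.9 CPM in male non-breeder 4. Only 1 of the 3 highest, male non-breeder 3, was among the libraries that stood apart on the first principal component.

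**Figure D5:**
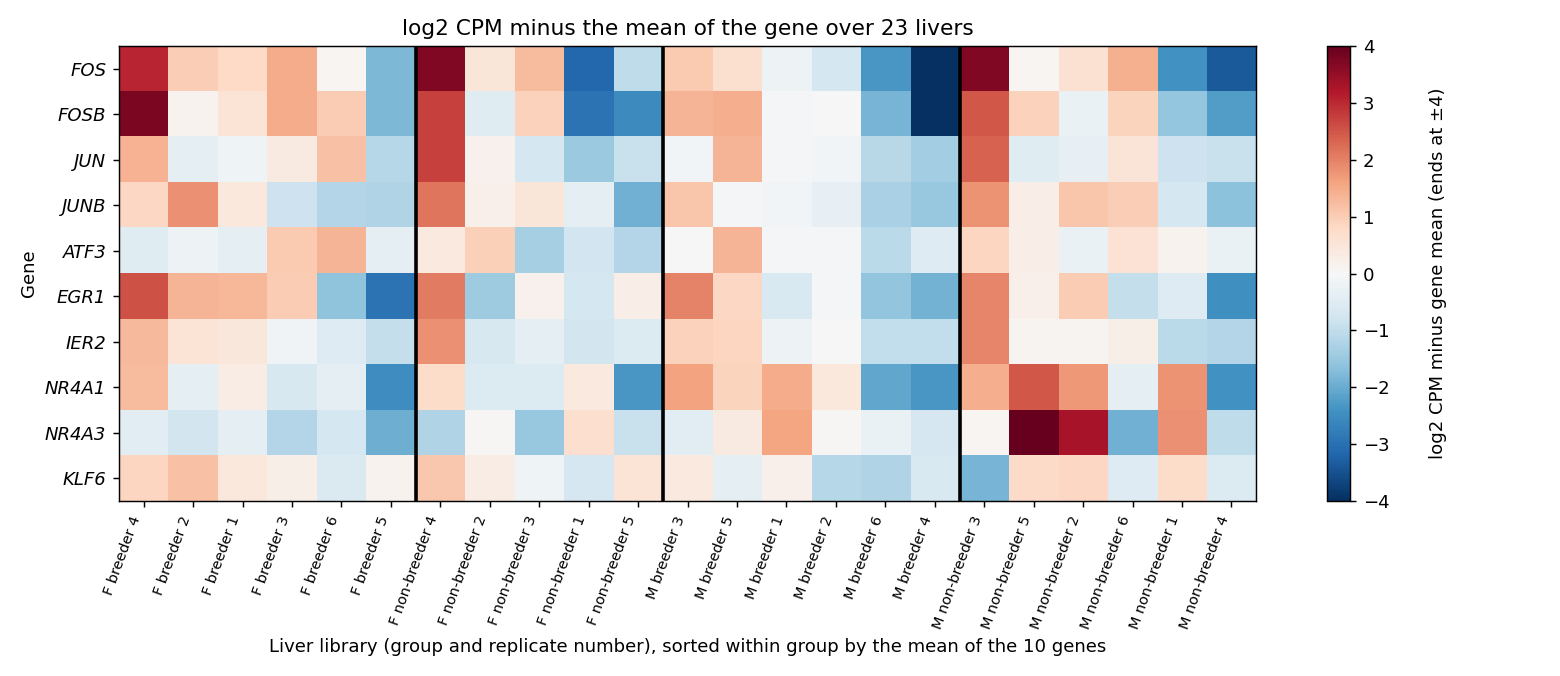
Log2 CPM of the 10 genes in 23 livers minus the mean of each gene, with groups separated by black lines and livers sorted within a group by the mean over the 10 genes. Red is above and blue below the gene's mean. Female breeder 4, female non-breeder 4 and male non-breeder 3 are red in most of the upper rows, and NR4A3 is darkest in male non-breeders 5 and 2.

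Over the 10 members and 14 library measures (total count, age, the first principal component, the MTRNR2L4 share, marker levels and others), 140 relations were computed, and 0 passed an adjusted p of 0.05. The strongest was KLF6 with the first principal component at r = -0.655 (adjusted permutation p = 0.0826), which was -0.434 without the 3 libraries that stood apart. ATF3 correlated with the total count at r = -0.627 and rho = -0.557 (permutation p = 0.00154, adjusted p = 0.0854), and JUN with the MTRNR2L4 share at r = 0.592 and rho = 0.549 (permutation p = 0.00342, adjusted p = 0.0958). FOS reached r = 0.373 with the first principal component and 0.147 without the 3 libraries.

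The genes outside the members whose pattern over the 23 livers was most like the members' mean were IRF2BP2 (Pearson's r = 0.842, Spearman's rho = 0.833), BTG2 (0.828 and 0.811), EGR2 (0.788 and 0.735), ZFP36 (0.759 and 0.661) and C8orf4 (0.756 and 0.731). NR0B2, PIK3R5, MIER2, PPP1R15A and DUSP5 followed with r between 0.721 and 0.752. BTG2 is an antiproliferative gene, EGR2 a paralog of EGR1, ZFP36 an mRNA decay factor that acts on AU-rich transcripts, PPP1R15A the stress-induced regulator of eIF2 phosphatase and DUSP5 a nuclear ERK phosphatase. BTG2 ranged between 4.78 and 80.9 CPM in female breeders, between 4.76 and 52.8 CPM in female non-breeders, between 2.87 and 22.5 CPM in male breeders and between 4.31 and 32.2 CPM in male non-breeders. IRF2BP2, a transcriptional corepressor, varied far less, with an SD within groups of 0.37 on the log2 scale. IER3 ranked 15th at r = 0.703, JUND 31st at 0.668 and SRF 42nd at 0.643, whereas MYC had 0.237 and FOSL2 0.112.

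Among gene lists of the pathway, 15 of 28 immediate early genes that are no transcription factors had r above 0.5 with the members' mean. The share was 53.57%, beside 1.69% of all 12296 genes tested outside the members. It was 5 of 21 for other immediate early transcription factors, 2 of 12 for dual-specificity phosphatases and other feedback inhibitors and 1 of 19 for the upstream transcription factors. None of 24 upstream kinases, 12 ATF4 and unfolded protein response genes or 11 inducible heat shock genes reached that value. These lists were described and not tested.

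In the comparisons themselves, 0 genes of these 7 lists passed the threshold in either direction. Of the immediate early genes that are no transcription factors, GADD45G, a growth arrest gene, stood at -2.42 ± 0.68 in NMR-M-BvN and at 2.20 ± 0.68 in NMR-B-FvM (log2 fold change ± SE). GADD45G had 0.913 to 6.11 CPM in male breeders, against 3.50 to 45.3 CPM in male non-breeders, so the groups overlapped. CTGF, a matricellular protein, stood at -1.38 ± 0.42 in NMR-M-BvN, and SOCS3, the feedback inhibitor of cytokine signalling, at 2.40 ± 0.93 in NMR-B-FvM. In this list 20 of 28 genes lay below 0 in NMR-M-BvN, where 53.4% of all genes did, and 17 of 28 above 0 in NMR-F-BvN, where 52.1% did.

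Of the other immediate early factors, NR4A2 stood at -2.46 ± 0.92 and JUND, an AP-1 subunit that is present without stimulus, at -0.89 ± 0.40 in NMR-M-BvN (log2 fold change ± SE). FOSL2 stood at -0.80 ± 0.48 and MYC at -0.39 ± 0.50 there. Among upstream factors CREM stood at -1.04 ± 0.32 in NMR-M-BvN, but EP300 at 0.45 ± 0.18 and CRTC3 at 0.71 ± 0.31. Of that list 14 of 19 genes lay above 0 and 5 below in NMR-M-BvN, where 53.4% of all genes lay below. The median was 0.14, against -0.02 over all genes. SRF, which drives FOS and EGR1 through the serum response element, stood at 0.56 ± 0.19 in NMR-BvN (edgeR adjusted p = 0.387). Of the feedback inhibitors, ERRFI1, which restrains EGFR, stood at -0.90 ± 0.36 in NMR-M-BvN and SPRY4 at 1.17 ± 0.42 in NMR-N-FvM. In the ATF4 list TRIB3, a pseudokinase target of ATF4, stood at -0.96 ± 0.30 in NMR-M-BvN. In the heat shock list BAG3, a co-chaperone, stood at -0.68 ± 0.21 in NMR-BvN (edgeR adjusted p = 0.348), and of the kinases MAP2K6, an activator of p38, at 0.56 ± 0.21. In NMR-M-BvN the kinase MAPK8 stood at 0.42 ± 0.20, and 10 of 24 kinases lay above 0 and 14 below, beside 53.4% of all genes below. BTG2, ZFP36 and IER3 stood at -0.65 ± 0.68, -0.29 ± 0.37 and 0.18 ± 0.55 in NMR-M-BvN. Females differed by status (NMR-F-BvN) at -0.76 ± 0.30 for BAG3, -0.33 ± 0.14 for the kinase MAPK9 and 0.63 ± 0.30 for MAP2K6. SRF stood at 0.59 ± 0.28 and ATF2, another upstream factor, at 0.24 ± 0.12 there, and none of these passed.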

How the data were processed

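Liver RNA of 23 animals was measured by RNA-seq. The authors made poly(A)-enriched, unstranded libraries and read them from 1 end. They aligned the reads with STAR 2.4.1d, a version given in the submitters' notes on processing, and counted uniquely placed reads per gene with HTSeq. What was deposited are these raw counts. Sense and antisense reads of overlapping genes are therefore mixed, and multi-mapping reads of near-identical copies are missing. All 10 genes were found by symbol, and 9 of 10 also in a RefSeq table of another assembly, so no coordinates are given. No sequence was used here.

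The tests were run in edgeR 4.0.16 (R 4.3.3). After filterByExpr (minimum count 10, minimum total 15), 12306 of 16339 genes were tested, all 10 members among them. All libraries entered 1 fit with TMM scaling and 1 mean per group. Differences were tested with the robust quasi-likelihood F-test (two-sided, Benjamini-Hochberg adjustment over all genes, threshold adjusted p 0.05). Groups came from the sample titles. Replicate numbers follow accession order and pair no animals. Which animals shared a litter or colony was not used here, so all were treated as independent. Correlations used log2 CPM (prior count 2) minus group means, with 100000 permutations. Counting intervals are exact Clopper-Pearson at 95%, and the limit for a count of 0 is 3 counts. The fit was also run on simulated counts with known changes. Each gene was drawn independently there, so genes that vary together, as the members do, were not imitated.

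Alternatives were DESeq2 size factors, no filter, DESeq2 1.42.0, limma 3.58.1 voom with quality weights, age as a covariate, a threshold of 0.01, fits on only the groups compared, 1 read length class, leaving out the 3 libraries that stood apart, and leaving out each library in turn. Within 1 read length class, only NMR-M-BvN and NMR-B-FvM were fitted. Members and lists were chosen with earlier results of these data known. All members are named, as are genes of further lists by smallest p (2 per list and comparison) and a fixed set. Of those of smallest p, many were left out for length, and more of those named come from NMR-M-BvN than from any other comparison. DUSP1 and CREB1 of the fixed set were not analysed here.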

Additional observations from a re-analysis of the deposited data

Results flagged for a closer look

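IER2 in female non-breeders was set apart by a single animal. Female non-breeder 4 had 92.5 CPM (1440 counts), and the next of the other 4 livers had 19.9 CPM. In log2 CPM this gap took 0.860 of the group's range. Of 40 combinations of gene and group tested in this way, 1 was found, and chance flags about 1 in 20. Without this liver the log2 fold change of IER2 was 0.88 in NMR-F-BvN and -1.01 in NMR-N-FvM, against -0.02 and -0.12 with it. The same liver was highest in JUN and JUNB and second in FOS, FOSB and EGR1.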

How the results depend on the processing

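Under the 10 kinds of alternative, no member passed in any comparison, and the lowest adjusted p was 0.103 (NR4A3 in NMR-N-FvM with DESeq2). The 2225 values recomputed were log2 fold changes of single genes, medians over the 10 genes and counts past the threshold. Of these, 2133 counted as kept, and 91 log2 fold changes turned in direction, 22 of them outside the runs without 1 library. A median counted as kept if it moved by less than 1.05, whatever its sign, so medians that crossed 0 are among the 2133. The threshold of 0.01 reused the main fit, which fixed its log2 fold changes. Beyond the spread between animals, 1 value moved (the median over the 10 genes in NMR-N-FvM, -1.11 without female non-breeder 4). For the values below that turned, the cause was not tested. With limma voom, log2 fold changes in NMR-F-BvN were 0.78 for FOS, 0.27 for JUN, 0.040 for JUNB and 0.38 for IER2, in NMR-BvN 0.063 for JUN and 0.19 for IER2, and in NMR-N-FvM -0.43 for FOSB, 0.11 for IER2 and -0.13 for KLF6. With age as a covariate, JUN was at -0.026 in the status difference in females minus males. With the libraries apart on the first component removed, IER2 was at 0.10 in NMR-F-BvN, 0.16 in NMR-M-BvN, 0.13 in NMR-BvN, 0.56 in NMR-N-FvM and -0.056 in the difference between sexes. In the same setting EGR1 was at 0.42 in NMR-M-BvN, ATF3 at -0.13 in NMR-BvN, JUN at -0.50 in the difference between sexes, JUNB at 0.36 in NMR-N-FvM and KLF6 at -0.043 in NMR-N-FvM. Within 1 read length class, ATF3 was at 0.016 in NMR-M-BvN and IER2 at -0.0055 in NMR-B-FvM. In fits on fewer libraries the filter dropped ATF3 and NR4A3 in NMR-B-FvM (within 1 read length class, and with only the groups compared) and in NMR-F-BvN (with only the groups compared), and ATF3 in NMR-M-BvN (with only the groups compared), so they have no value there.

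Leaving out each library in turn gave these lowest and highest log2 fold changes for the genes that turned. In NMR-F-BvN they were -1.11 and 1.29 for FOS, -0.32 and 2.35 for FOSB, -0.31 and 0.88 for IER2, -0.70 and 1.07 for JUN, -0.82 and 0.59 for JUNB, -0.047 and 0.42 for KLF6, and -0.31 and 0.49 for NR4A1. In NMR-M-BvN they were -0.68 and 0.026 for ATF3, -0.82 and 0.52 for EGR1, -0.90 and 0.34 for FOSB, -0.54 and 0.37 for IER2, and -1.06 and 0.37 for JUN. In NMR-BvN they were -0.050 and 0.52 for ATF3, -0.13 and 0.67 for EGR1, -0.41 and 0.92 for FOSB, -0.31 and 0.28 for IER2, and -0.74 and 0.26 for JUN. In NMR-B-FvM they were -0.086 and 0.78 for ATF3, -0.13 and 0.40 for IER2, and -0.030 and 0.98 for JUNB. In NMR-N-FvM they were -0.76 and 0.73 for EGR1, -1.50 and 1.65 for FOS, -1.32 and 0.96 for FOSB, -1.01 and 0.56 for IER2, -1.21 and 1.22 for JUN, -0.86 and 0.36 for JUNB, and -0.11 and 0.34 for KLF6. In the difference between sexes they were -0.055 and 3.09 for FOS, -0.38 and 1.19 for IER2, -0.81 and 1.62 for JUN, and -0.016 and 1.397 for JUNB. The median over the 10 genes lay between -0.31 and 0.83 in NMR-F-BvN, -0.84 and -0.15 in NMR-M-BvN, -0.47 and 0.10 in NMR-BvN, 0.25 and 0.79 in NMR-B-FvM, -1.11 and 0.46 in NMR-N-FvM, and 0.38 and 1.47 in the difference between sexes. No paired analysis was possible because the labels give no replicate numbers shared between groups. With 5 or 6 animals a group and a within-group SD of 2.21 on the log2 scale for FOS, status differences of several fold cannot be told from 0. ATF3 and NR4A3 are limited by their counts as well.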
